A study of Mus musculus with 36 samples.

Results

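The kynurenine pathway is the main route by which tryptophan is broken down, and it competes with serotonin synthesis for this amino acid. The enzymes examined here were Ido1, Ido2, Tdo2, Kmo, Kynu, Haao, Afmid, Acmsd, Qprt and Aadat, taken as a set for their place in the pathway. Of these 10 genes, 9 had a transcript cluster (a probe set of the array) annotated to that gene alone, out of 18820 genes read in the same way. The only cluster of Afmid also names Tk1, so Afmid, the formamidase that follows the first step, was left without a value. Each of the 9 genes had 1 cluster, and no filter on intensity was applied.

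The pathway begins when indoleamine or tryptophan dioxygenase opens the ring of tryptophan, which leads to kynurenine. Kynurenine is then either hydroxylated and cleaved toward quinolinic acid, an agonist of NMDA receptors and a precursor of NAD, or turned by aminotransferases into kynurenic acid, which blocks the same receptors. In the brain the hydroxylating branch is known from microglia and the aminotransferase branch from astrocytes. Inflammation is known to engage the pathway mainly through interferon-γ, which induces Ido1.

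Hypothalamic RNA of male C57BL/6 mice was read on 36 Affymetrix Mouse Gene 1.1 ST arrays, 1 per mouse. The animals were killed 5 h after 50 µl had been injected into the peritoneum. The TNF group received 15 pg TNFα, the IL-6 Low group 50 pg IL-6 and the IL-6 High group 800 pg IL-6. In the combined groups, named TNF + IL-6 Low or TNF + IL-6 High after their dose of IL-6, 15 pg TNFα was given along with it, and Control mice were given saline. Each group had 6 arrays, of which TNF replicate 4 was left out, so that 35 arrays were used and 5 of them were TNF. The sample labels call the TNF treatment low, although the methods give 1 dose. The mice were injected shortly before the dark phase, were housed alike and had the same access to food. The paper reports food intake significantly below Control before tissue was taken, in the TNF, IL-6 High and both combined groups. After 5 h it reports similar intake in all groups, and its discussion describes a decrease in every treated group. The part of food intake in the differences was not tested.

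TNF replicate 4 differed widely from all other arrays, with a median correlation to them of 0.270, against 0.972 to 0.988 on the other 35. Medians of the log2 intensities lay between 5.53 and 5.71 on these 35 arrays. All 9 measured genes of a list of hypothalamic markers, among them Avp, Oxt and Hcrt, exceeded an intensity of 20 on at least 3 arrays, which is the minimum that the methods set for a gene. None of the 9 was called, but all were below Control in TNF (median difference -0.15), IL-6 Low (median -0.07) and TNF + IL-6 Low (median -0.37). In TNF + IL-6 High 8 were below (median -0.16), while with IL-6 High alone 8 were above (median 0.11), and their part in the differences of the pathway genes was not tested. The first letter of the array names followed the replicate number, with E for replicate 1, F for 2 and 3, G for 4 and 5, and H for 6, so each letter held all 6 groups. For replicates 5 and 6 of Control the labels give other mouse numbers than the names of the arrays do, and both were taken as Control.

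Qprt, the enzyme that carries quinolinic acid toward NAD, was the only member whose upstream sequence held one of the searched motifs. It is shown because members of the STAT family, which carry IL-6 and interferon signals, are known to bind such letters. Upstream sequences from RefSeq (GRCm38.p6) were found for 7 of the 10 genes, not for Ido1, Ido2 and Kynu. In the 250 bases before the start site, TTCNNNGAA (either strand, which is the same match) was found in 1 of these 7 and in 7.02% of 32851 promoters of that length. The core of an interferon-stimulated response element, GAAA followed after NN by GAAA, was found on either strand in 0 of the 7 and in 2.98% of all promoters. The sequence at chr7:127122030-127122279, minus strand, is printed 5′ to 3′ with the match in capitals, which begins 19 bases before the start site.
Qprt: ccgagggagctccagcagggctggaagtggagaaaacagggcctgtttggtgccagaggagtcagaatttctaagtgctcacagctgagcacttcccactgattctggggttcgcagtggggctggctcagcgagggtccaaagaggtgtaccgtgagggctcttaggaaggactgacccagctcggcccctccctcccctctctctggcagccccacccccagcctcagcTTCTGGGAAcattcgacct

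Most of the pathway was measured at low intensity in this tissue. Only Ido2 and Qprt exceeded an intensity of 20 (4.32 on the log2 scale) on all 35 arrays, and Haao did so on 25. Ido1 exceeded it on 1 array, TNF replicate 2, at an intensity of 20.6. Tdo2, Kmo, Kynu, Acmsd and Aadat were below it on all 35 arrays, with highest intensities of 9.17, 10.4, 14.6, 17.8 and 11.3. Thus 3 of the 9 members passed the minimum of the methods on these clusters, as did 80% of all genes. Intensities of different probe sets are not on a common scale, so they do not rank the genes by amount of RNA, and changes of dim probe sets can be understated in log2 intensity.

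**Figure D1:**
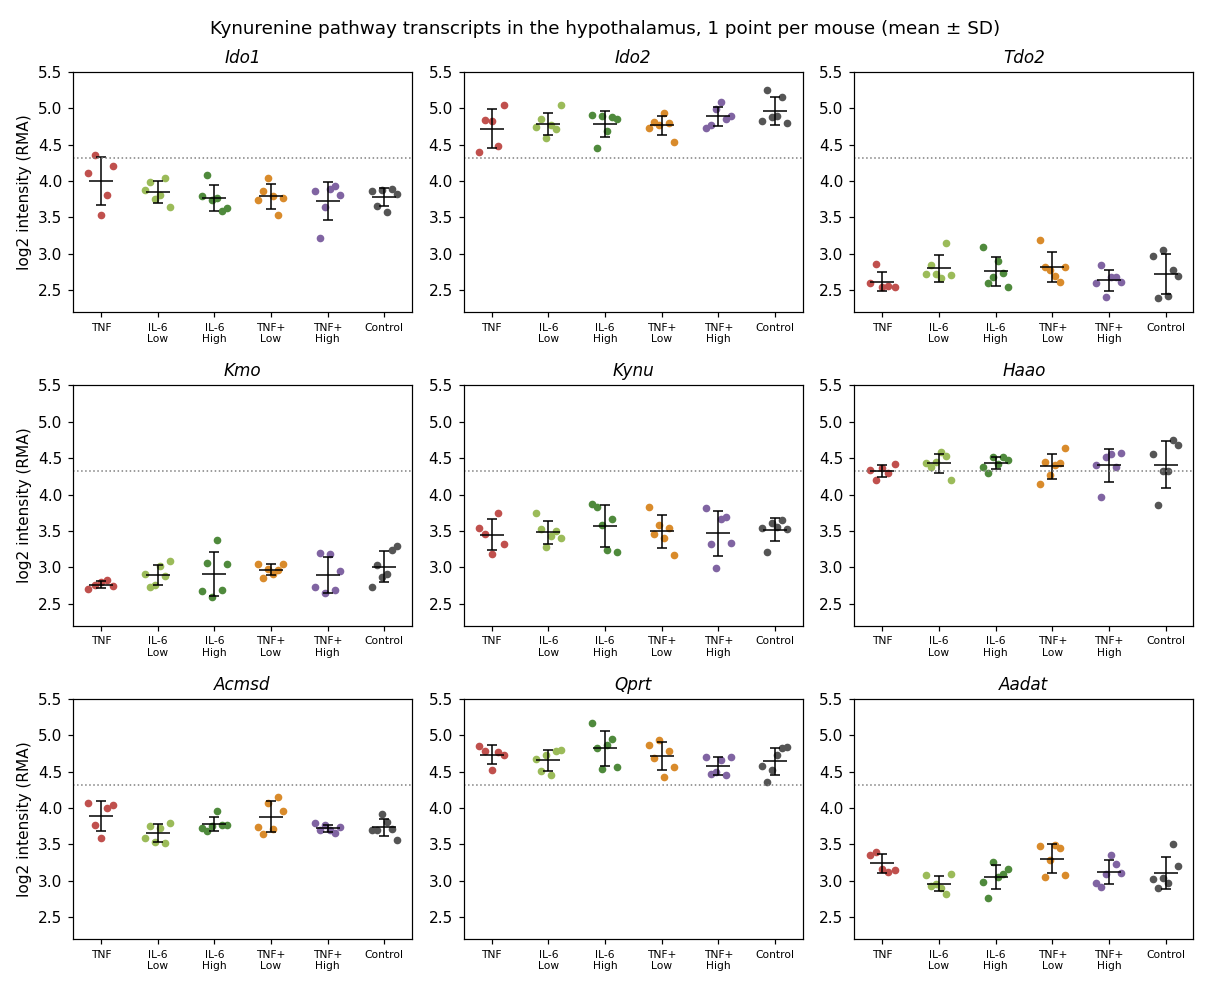
Log2 intensity (RMA) of the 9 measured kynurenine pathway genes on 35 arrays, by treatment group, with 1 point per mouse and black bars for the mean and SD. The dotted line is an intensity of 20, and the points of each treated group overlap those of Control in every panel.

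No member differed from Control past the threshold in any treated group. All 18820 genes were fitted together in limma, with a mean for each of the 6 groups, and p values were adjusted over all of them. At an adjusted p under 0.05, 0 of 9 members and 0% of all genes were called in each of the 5 treated groups. At an unadjusted p under 0.05, 2 of 9 members were found in TNF, where 5.28% of all genes were. In the other groups 0 of 9 members were found at this level, while for IL-6 alone 2.56% of all genes were at the low and 2.68% at the high dose, and for both cytokines 8.78% at the low and 2.99% at the high dose of IL-6. The 45 differences (9 members in 5 groups) comprised 19 above and 26 below Control. The largest was 0.25 on the log2 scale, a 1.19-fold difference, with standard errors from 0.09 to 0.13. All 5 groups share the 6 Control arrays, so their differences are not independent of each other. With TNF replicate 4 included no member was called either, but in TNF the differences of Tdo2, Kmo, Kynu and Haao turned to 0.39, 0.28, 0.35 and 0.35.

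The 95% intervals of the 45 differences ran from -0.49 at the lowest to 0.47 at the highest, which corresponds to folds of 1.40 below and 1.39 above Control. None reached 0.58, the log2 of a fold of 1.5. These are bounds on probe set intensity, and since 6 of the 9 members were under the minimum they do not bound the change in RNA. The median difference of the 9 members was -0.06 in TNF (0.01 over all genes). For IL-6 alone it was -0.03 at the low dose (-0.01 over all genes) and 0.02 at the high dose (0.00 over all genes). For both cytokines it was 0.01 at the low dose of IL-6 and -0.06 at the high dose (-0.02 over all genes at each). In TNF 4 members were above and 5 below Control, and the split was the same for the low dose of IL-6 alone. It was 5 above and 4 below for the high dose alone, and also for TNF + IL-6 Low. In TNF + IL-6 High 1 member was above and 8 below Control, where 38.6% of all genes were above.

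**Figure D2:**
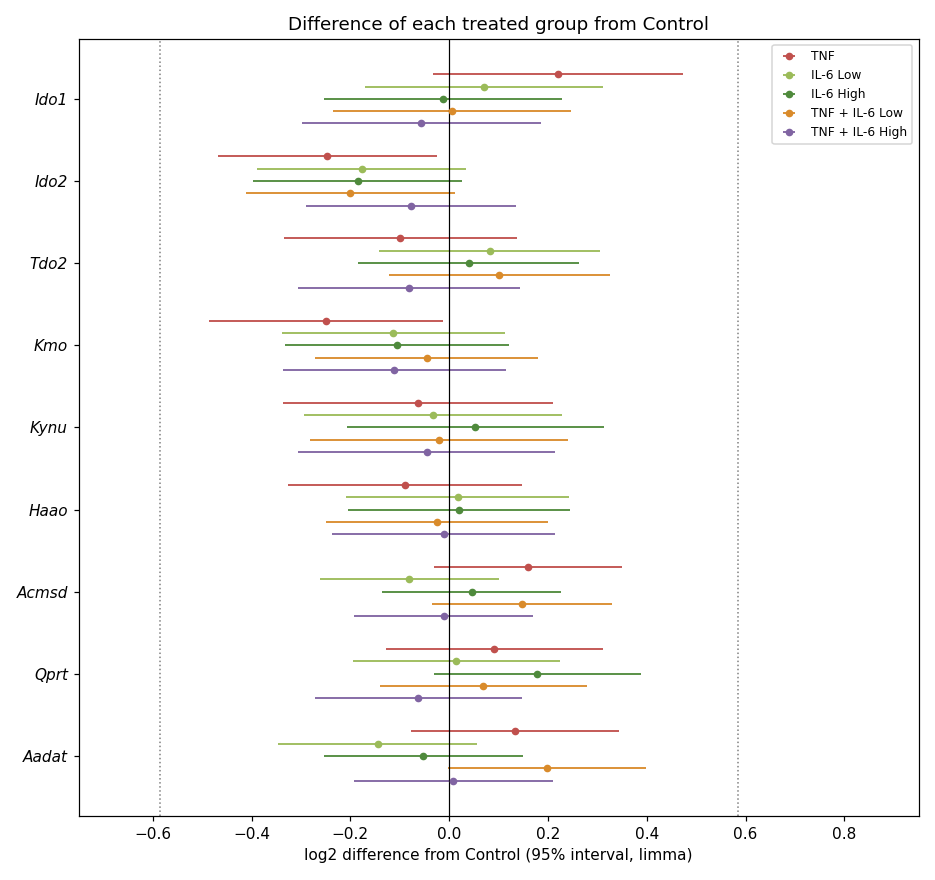
Log2 difference of each treated group from Control for the 9 genes (points) with 95% intervals from limma (lines), with groups in colour and the dotted lines at a fold of 1.5 in either direction. The intervals lie between -0.49 and 0.47, inside the dotted lines.

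The first step is catalysed by Ido1, its paralogue Ido2 and Tdo2. Ido1, the dioxygenase that interferons induce in macrophages and dendritic cells, was at log2 intensities of 4.11, 4.36, 3.53, 3.80 and 4.21 on the TNF arrays. For IL-6 alone the lowest, median and highest values were 3.64, 3.84 and 4.04 at the low dose and 3.59, 3.76 and 4.09 at the high dose. With TNFα added they were 3.53, 3.78 and 4.04 at the low and 3.22, 3.84 and 3.93 at the high dose of IL-6, against 3.58, 3.84 and 3.89 in Control. In TNF, 3 of 5 arrays lay above all Control arrays and 1 lay below all of them, so the groups overlapped. The mean was 4.00 ± 0.33 in TNF (SD, n = 5) and 3.78 ± 0.13 in Control (SD, n = 6). The difference was 0.22 (SE 0.12, 95% interval -0.03 to 0.47, adjusted p = 0.925 from limma). Without TNF replicate 3 it was 0.34, and without TNF replicate 2 it was 0.13. TNF replicate 2 also had a mean log2 level of cerebellar markers of 7.78, against 5.64 to 6.10 on the other TNF arrays. The part of such tissue in Ido1 was not tested. In the other treated groups the difference of Ido1 lay between -0.06 (TNF + IL-6 High) and 0.07 (IL-6 Low). The spread of Ido1 among TNF mice was the widest of the 6 groups, which was not tested.

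Ido2, which has weak activity toward tryptophan and lies beside Ido1 on chromosome 8, was below Control in each of the 5 treated groups. Its values were 4.40, 4.83, 4.82, 4.49 and 5.04 on the TNF arrays. For IL-6 alone the lowest, median and highest were 4.59, 4.76 and 5.05 at the low dose and 4.45, 4.86 and 4.91 at the high dose. Both cytokines gave 4.54, 4.79 and 4.94 at the low and 4.73, 4.87 and 5.09 at the high dose of IL-6, against 4.79, 4.88 and 5.25 in Control. Control replicates 2 and 5 were the highest of all arrays, and every treated group overlapped Control. The differences were -0.25 in TNF (SE 0.11, 95% interval -0.47 to -0.02), -0.18 and -0.19 for the low and high dose of IL-6 alone, and -0.20 and -0.08 for these doses with TNFα, with adjusted p values from 0.575 to 1.00 (limma). For the mean of the 5 treated groups Ido2 was at -0.18 (SE 0.08, unadjusted p = 0.0355, adjusted p = 1.00 from limma), the only 1 of 9 members under an unadjusted 0.05 there, where 3.97% of all genes were. No gene passed an adjusted threshold in this comparison (0%). Without Control replicate 2 this value of Ido2 was -0.12. Within the array letters, the treated mean differed from the Control mean by -0.11 (E), -0.28 (F), -0.26 (G) and 0.08 (H), with 1 or 2 Control arrays in each.

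Tdo2, the dioxygenase of the liver that glucocorticoids induce there, was near the bottom of the intensity range. It was at 2.59, 2.86, 2.55, 2.56 and 2.54 on the TNF arrays, and the lowest, median and highest values were 2.40, 2.73 and 3.05 in Control. Its differences lay between -0.10 in TNF and 0.10 in TNF + IL-6 Low (adjusted p from 0.787 to 1.00, limma). The 6 Control arrays alone spanned more than these differences, from 2.40 to 3.05.

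The hydroxylating branch runs through Kmo, Kynu and Haao. Kmo, the monooxygenase that commits kynurenine to this branch, was at 2.70, 2.75, 2.79, 2.82 and 2.74 on the TNF arrays, a narrow range that lay within the span of the Control arrays except for 1 value. IL-6 alone gave lowest, median and highest values of 2.73, 2.90 and 3.09 at the low dose and 2.60, 2.87 and 3.38 at the high dose. With TNFα added they were 2.85, 2.97 and 3.05 at the low and 2.65, 2.84 and 3.20 at the high dose of IL-6, against 2.73, 2.97 and 3.29 in Control. Kmo averaged 2.76 ± 0.05 in TNF (SD, n = 5) and 3.01 ± 0.22 in Control (SD, n = 6), a difference of -0.25 (SE 0.12, 95% interval -0.49 to -0.01, unadjusted p = 0.0401, adjusted p = 0.925 from limma). The differences were -0.11 at both doses of IL-6 alone, and -0.05 and -0.11 at the low and high dose with TNFα. The highest intensity of Kmo on the 35 arrays was 10.4, and with the minimum of the methods applied to these clusters the gene would not have been tested.

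Markers of microglia, the brain cells in which Kmo is mainly known, were set beside it. Of 10 listed, 9 were measured, among them Cx3cr1, P2ry12, Tmem119 and Csf1r, and all 9 were above Control in TNF with a median difference of 0.10, none called. Their mean log2 level ranged from 6.71 to 7.01 in TNF and from 6.65 to 6.83 in Control. In the mean of the 5 treated groups 5 were above and 4 below Control, with a median of 0.00. In RNA of whole tissue, fewer cells of a type and less RNA per cell cannot be told apart. Macrophage and dendritic markers, cells in which Ido1 is known, had 2 of 7 above and 5 below Control in TNF, with a median of -0.08, and a mean log2 level from 5.02 to 5.21 in TNF and from 5.06 to 5.34 in Control. The part of these cells in the values of Ido1 and Kmo was not tested.

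Kynu, the kynureninase that cleaves kynurenine and its hydroxylated form, had means that ranged wider over the array letters than over the treatments. It was at 3.54, 3.46, 3.18, 3.75 and 3.31 on the TNF arrays, and its lowest, median and highest values in Control were 3.21, 3.54 and 3.65. TNF arrays lay on both sides of the Control range. Its group means lay between 3.45 ± 0.22 in TNF (SD, n = 5) and 3.57 ± 0.28 in IL-6 High (SD, n = 6), with 3.51 ± 0.16 in Control (SD, n = 6). The differences from Control ran from -0.06 in TNF to 0.05 in IL-6 High. By letter, Kynu was at 3.73 ± 0.15 on the E arrays (SD, n = 6), 3.42 ± 0.23 on F (SD, n = 12), 3.55 ± 0.15 on G (SD, n = 11) and 3.32 ± 0.13 on H (SD, n = 6). The limma F test for letter gave Kynu an unadjusted p = 0.00332 and an adjusted p = 0.323 over all genes, where no gene was called. It was the only 1 of 9 members under an unadjusted 0.05 in that test, a share near the 11.9% of all genes. Within the letters the treated mean differed from the Control mean of Kynu by 0.22 (E), 0.01 (F), -0.04 (G) and -0.24 (H).

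Haao makes the direct precursor of quinolinic acid. It was at 4.33, 4.19, 4.37, 4.30 and 4.42 on the TNF arrays, and the lowest, median and highest values in Control were 3.85, 4.44 and 4.74. The Control arrays of Haao had an SD of 0.33, the widest of the 6 groups, and held both its lowest and its highest value among the 35 arrays. Its differences ranged from -0.09 in TNF to 0.02 in IL-6 High (adjusted p from 0.956 to 1.00, limma).

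Acmsd and Qprt act at the end of this branch, where Acmsd turns its intermediate away from quinolinic acid and Qprt consumes that acid. Acmsd was at 4.06, 3.76, 3.59, 4.00 and 4.04 on the TNF arrays. Its lowest, median and highest values for IL-6 alone were 3.52, 3.65 and 3.80 at the low dose and 3.68, 3.76 and 3.97 at the high dose. Both cytokines gave 3.64, 3.85 and 4.16 at the low and 3.65, 3.71 and 3.79 at the high dose of IL-6, against 3.56, 3.71 and 3.92 in Control. In TNF 3 of 5 arrays, and in TNF + IL-6 Low 3 of 6, lay above all Control arrays. The differences from Control were 0.16 in TNF (SE 0.09, adjusted p = 0.925) and 0.15 in TNF + IL-6 Low (SE 0.09, adjusted p = 0.603, both limma), and lay between -0.08 and 0.05 in the other groups.

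Qprt was at 4.86, 4.79, 4.52, 4.78 and 4.72 on the TNF arrays. IL-6 alone gave lowest, median and highest values of 4.45, 4.70 and 4.79 at the low dose and 4.54, 4.85 and 5.16 at the high dose. The combinations gave 4.42, 4.74 and 4.93 at the low and 4.45, 4.57 and 4.71 at the high dose of IL-6, against 4.35, 4.65 and 4.84 in Control. Qprt had its highest group mean in IL-6 High, at 4.82 ± 0.24 (SD, n = 6), and its lowest in TNF + IL-6 High, at 4.58 ± 0.12 (SD, n = 6), with Control at 4.64 ± 0.19 (SD, n = 6). In IL-6 High 3 of 6 arrays lay above all Control arrays, and the difference was 0.18 (SE 0.10, 95% interval -0.03 to 0.39, adjusted p = 1.00 from limma). In TNF + IL-6 High it was -0.06 (SE 0.10). The highest value of Qprt, 5.16, was on IL-6 High replicate 1.

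Aadat, an aminotransferase that makes kynurenic acid, had the smallest p of the 9 members for any difference among the 6 groups (limma moderated F, unadjusted p = 0.0208, adjusted p = 1.00). In that test Aadat was the only member under an unadjusted 0.05, where 3.23% of all genes were, and 0% were called. It was at 3.35, 3.40, 3.17, 3.13 and 3.15 on the TNF arrays. For IL-6 alone its lowest, median and highest values were 2.82, 2.94 and 3.09 at the low dose and 2.77, 3.07 and 3.26 at the high dose. The combinations gave 3.05, 3.36 and 3.49 at the low and 2.91, 3.10 and 3.36 at the high dose of IL-6, against 2.91, 3.03 and 3.50 in Control. The highest Control array, replicate 5, lay above all the treated arrays. The differences from Control were 0.13 in TNF, and -0.14 and -0.05 for the low and high dose of IL-6 alone. In TNF + IL-6 Low the difference was 0.20 (SE 0.10, unadjusted p = 0.0536, adjusted p = 0.568 from limma), and in the other combination it was 0.01. The highest intensity of Aadat was 11.3.

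The lowest TNF array of Aadat, 3.13, lay above the highest IL-6 Low array, 3.09, so these 2 groups, picked after the values were seen, did not overlap. This held for 1 of 9 members and for 0.234% of all genes. The difference of TNF from IL-6 Low was 0.28 (SE 0.10, 95% interval 0.07 to 0.49, unadjusted p = 0.0112, adjusted p = 0.998 from limma), in a contrast chosen after the values were seen. Acmsd differed in the same contrast by 0.24 (SE 0.09, unadjusted p = 0.0149, adjusted p = 0.998). An unadjusted p under 0.05 was found there for 3.72% of all genes and an adjusted one for 0%. Astrocyte markers, the cells in which Aadat is mainly known, had 6 of 7 above Control in TNF, with a median of 0.03. For the low dose of IL-6 alone 4 of 7 were above (median 0.00). With TNFα added to this dose, where Aadat differed most from Control, 1 was above and 6 were below (median -0.07). At the high dose 2 of 7 were above, both without TNFα (median -0.02) and with it (median -0.03). In the mean of the 5 treated groups 4 of 7 were above, with a median of 0.00. The mean log2 level of these markers ranged from 9.67 to 10.06 in TNF and from 9.60 to 9.92 in Control. Their part in the values of Aadat was not tested.

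Whether the combined cytokines departed from the sum of their separate effects was tested for both doses. With IL-6 Low, 0 of 9 members were under an unadjusted 0.05, against 3.7% of all genes. With IL-6 High, 2 of 9 were, Ido2 and Qprt, against 4.17% of all genes. The departure of Ido2 was 0.35 (SE 0.15, unadjusted p = 0.0246) and that of Qprt was -0.33 (SE 0.15, unadjusted p = 0.0331), both with an adjusted p = 0.969 (limma). No member and 0% of all genes passed the adjusted threshold at either dose.

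Deviations from the group means showed little common variation among the 9 genes. Of 36 pairs, 20 had a positive and 16 a negative Pearson correlation over the 35 arrays, with a median of 0.03 and a range from -0.23 to 0.50. In a permutation test with 100000 resamples within groups, 3 pairs were under an unadjusted 0.05 by Pearson's r and 3 by Spearman's rho, and 0 passed after adjustment over the 36 pairs. The pair with the smallest p was Kynu and Qprt, with r = 0.503 (permutation p = 0.0044, adjusted p = 0.16) and rho = 0.484 (permutation p = 0.0056, adjusted p = 0.202). Without the 2 arrays farthest from the median of Kynu, r was 0.459. Within the array letters r was 0.569 (E, n = 6), 0.348 (F, n = 12), 0.240 (G, n = 11) and 0.960 (H, n = 6).

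**Figure D3:**
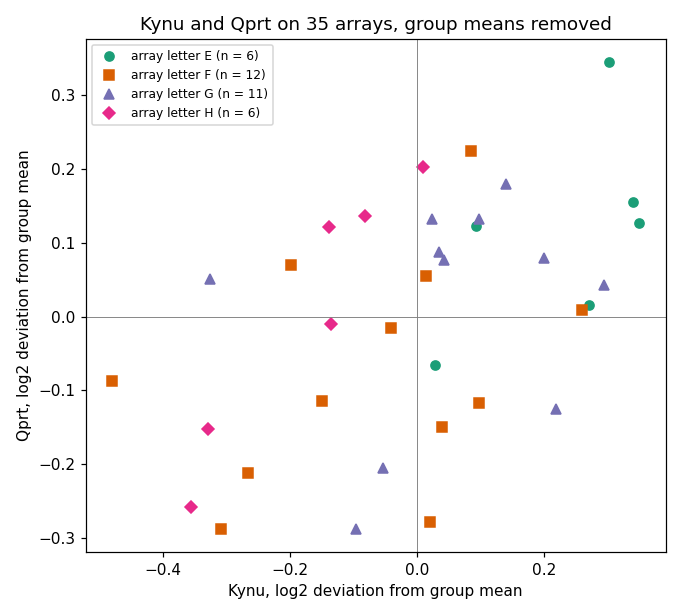
Deviation of Qprt against that of Kynu from their group means, in log2 units, on 35 arrays, with 1 point per mouse and colour and shape for the first letter of the array name. The points rise together over all letters (r = 0.503), and the E arrays lie at higher values of Kynu than the H arrays.

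The genes whose deviations were most like those of each member were read from up to 13979 protein-coding genes over the minimum intensity (predicted genes, Riken clones, receptor families of smell and immune receptor segments left out), as a description over 35 arrays. They were Dlx2, Tchh and Rxrg for Ido1 (r of 0.633, 0.624 and 0.618), and Nrn1l, Prox2 and Pknox2 for Ido2 (0.684, 0.645 and 0.642). For Tdo2 they were Vps4b, Ahsg and Hes1 (0.659, 0.563 and 0.563), and for Kmo Homer2, Grm4 and Ccdc134 (0.641, 0.641 and 0.636). Kynu had the highest values, with Dhrsx at 0.740, Anxa2, a calcium-dependent membrane-binding protein, at 0.729 and Alpl, the tissue-nonspecific alkaline phosphatase, at 0.679. They were Prss27, Xcl1 and Guca2b for Haao (0.638, 0.616 and 0.595), and B3gnt9, Cyp21a1 and Col11a2 for Acmsd (0.566, 0.561 and 0.545). For Qprt they were Wnt10a, Vnn3 and Ffar2 (0.610, 0.606 and 0.596), and for Aadat Iqcd, Tnnt2 and Zfp474 (0.648, 0.630 and 0.600). These values were picked as the highest among all genes compared, and none was tested. Means of the array letters were not removed, and their part in these values was not tested.

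Genes around the pathway did not pass either. Of 65 genes in 9 lists, 61 were measured, and 0 were called in any of the 5 groups or in their mean. In the mean of the 5 groups 21 of the 61 were above and 40 below Control, and 2 below and 0 above had an unadjusted p under 0.05, a share near the 3.97% of all genes. Over all genes, 45.3% were above Control in this comparison. Of 4 other measured enzymes and cofactor enzymes, 2 were above and 2 below, with the aminotransferases Kyat1 and Kyat3, which also make kynurenic acid, at -0.09 (SE 0.07) and 0.08 (SE 0.09), and the vitamin B6 kinase Pdxk at -0.05 (SE 0.07). Of 7 genes of NAD synthesis, into which the pathway feeds, 3 were above and 4 below, with Nmnat3, Nmnat2 and Nmrk1 at -0.09, -0.03 and 0.06. Of 4 transporters of tryptophan and kynurenine, 1 was above, Slc16a10 at 0.11 (SE 0.07), while Slc7a5 and Slc3a2, the subunits of the large neutral amino acid transporter, were at -0.10 and -0.03.

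Among 5 measured receptors on which kynurenines act, 2 were above and 3 below, with the nicotinic receptor Chrna7 at 0.08 (SE 0.06), Gpr35 at -0.08 and the NMDA receptor subunit Grin2a at 0.08. Kynurenine is a ligand of the aryl hydrocarbon receptor. Of 4 measured targets of this receptor 1 was above, Cyp1a1 at 0.06, and 3 below, with Cyp1b1 at -0.35 (SE 0.19) and the repressor Ahrr at -0.07. Cyp1b1 is also abundant in meningeal and vascular cells. In the mean of the 5 groups the 9 meningeal markers, such as Col1a1 and Dcn, were all below Control, with a median of -0.34 and none called. Their median was -0.38 in TNF, and their mean log2 level ranged from 5.82 to 6.81 there and from 5.80 to 7.35 in Control. In IL-6 High, where Cyp1b1 was lowest at -0.53, the median of these markers was -0.58. In TNF + IL-6 High, with Cyp1b1 at -0.21, 8 of these markers were below and 1 above, with a median of -0.15. Their part in the value of Cyp1b1 was not tested.

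A list of interferon genes was set beside Ido1. It holds response genes along with Ifng and the receptor genes Ifngr1 and Ifngr2. In the mean of the 5 groups 3 of 14 were above and 11 below Control, with a median of -0.07. The 3 above were Ifng, Ifngr1 (0.06) and the response gene Irf7 (0.06). Ifit3, an antiviral protein, was at -0.28 (SE 0.11, unadjusted p = 0.0184), the chemokine Cxcl10 at -0.15 (SE 0.07, unadjusted p = 0.0307) and the guanylate-binding protein Gbp2 at -0.14 (SE 0.10), each with an adjusted p = 1.00 from limma. The transcript of interferon-γ itself, Ifng, was at 0.09 (SE 0.08). Of 12 response genes of IL-6 and TNF 4 were above and 8 below, with Stat3 at -0.13 (SE 0.07), the acute-phase gene Lcn2 at 0.35 (SE 0.30) and Socs3, the feedback inhibitor of IL-6 signalling, at -0.09 (SE 0.08). Of 7 glucocorticoid response genes, set beside Tdo2, 1 was above and 6 below, with Pdk4 at -0.19 (SE 0.11), Per1 at -0.11 and Fkbp5 at -0.07.

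The serotonin branch, which uses the same tryptophan, had 4 of 4 measured genes above Control in the mean of the 5 groups, with Tph2 at 0.33 (SE 0.42), Tph1 at 0.10 (SE 0.11) and Gch1 at 0.09 (SE 0.12), none called. In TNF + IL-6 Low 2 of 4 were above, with Tph2 at -0.11 (SE 0.53). Tph2, the tryptophan hydroxylase of neurons, was at 4.95, 3.79, 4.33, 8.47 and 4.16 on the TNF arrays, and its lowest, median and highest values in Control were 3.74, 4.25 and 4.69. TNF replicate 5 stood far above the others. In TNF the difference of Tph2 was 0.89 (SE 0.56, adjusted p = 0.925 from limma), and without replicate 5 it was 0.05 (SE 0.46). Slc6a4 and Slc17a8 were the measured markers of serotonin neurons, whose cell bodies lie outside the hypothalamus. They were both above Control in TNF, with a median difference of 0.67 and none called. Their mean log2 level had a median of 4.48 and a highest value of 7.22 in TNF, against 4.11 to 4.61 in Control. Both were also above Control in IL-6 Low, IL-6 High and TNF + IL-6 High (medians 0.32, 0.29 and 0.37), and 1 was in TNF + IL-6 Low. Of the cerebellar markers 7 of 7 were above Control in TNF, with none called and a median difference of 0.65, and a mean log2 level from 5.64 to 7.78 in TNF and from 5.41 to 5.75 in Control. Without TNF replicate 2, the array at 7.78, 6 of 7 were above, with a median of 0.16. The part of both in the TNF values of Tph2 and of the kynurenine genes was not tested.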

How the data were processed

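Hypothalamic RNA was measured on Affymetrix arrays. Deposited are log2 values of intensity, which RMA gave the authors (version not given in the sources used here), per transcript cluster of the array's own annotation. They were analysed as deposited, without the methods' filters on intensity and probe number. The remapped probe sets of the paper were not used here. Of 35556 clusters, 21218 are annotated to 1 gene, 1881 to more than 1 and 12457 to none. Clusters of 1 gene were kept, the one of highest mean per gene, which left 18820 genes.

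One linear model over the 6 groups (35 arrays) was fitted to all genes with limma 3.58.1 in R 4.3.3, with an intensity trend in eBayes in place of the intensity-based moderated statistic of the methods, and Benjamini-Hochberg adjustment over all genes (threshold 0.05, two-sided). The fit was tested on simulated data. The methods leave out 1 TNF array without naming it, and replicate 4 was left out here for its low correlation with the others. The number of arrays limits the precision. Correlations and figures were made with Python 3.11.15.

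The members, lists and tests were chosen with earlier results of these data known. The genes named are the members, the 3 genes most like each, and up to 3 genes of smallest p in each list. Ifng, Ifngr1, Ifngr2, Irf7 and the cell type markers were named as well, after their values were seen. Alternatives are named in the closing section. Same-numbered arrays of different groups had correlations of deviations from -0.31 to 0.58, a range that does not settle whether they are pairs. The replicate number was left out of the main fit and was used as a block in an alternative.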

Additional observations from a re-analysis of the deposited data

Results flagged for a closer look

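Of 54 groups of a member's values, 6 held an array whose gap to the next one was large for the group's range. Chance gives about 1 in 20 groups if values are normally distributed, and the share over all genes was not counted. Tdo2 was high on TNF replicate 2 (2.86, against 2.54 to 2.59 on the other TNF arrays), on IL-6 Low replicate 5 (3.15, against 2.66 to 2.85) and on TNF + IL-6 Low replicate 1 (3.20, against 2.61 to 2.82). Kynu was low on Control replicate 2 (3.21, against 3.52 to 3.65), Haao was low on TNF + IL-6 High replicate 2 (3.97, against 4.38 to 4.57), and Acmsd was high on IL-6 High replicate 4 (3.97, against 3.68 to 3.77).

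Every TNF array of Aadat lay above the Control mean and every IL-6 Low array below it, with differences from Control of 0.13 and -0.14 and a gap of 0.28 between them, which did not pass over all genes (adjusted p = 0.998 from limma). Every pair of treated groups was searched for this pattern in each member, and no other was found. The share of all genes with such a pattern was not counted.

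On TNF replicate 4, which was left out, 8 of the 9 members lay above every other array. The share of all genes that did so was not counted, so this is not read as a trait of the members. This array gave log2 intensities of 6.49 for Ido1, 5.58 for Tdo2, 5.95 for Kmo, 5.91 for Kynu, 6.96 for Haao, 6.35 for Acmsd, 5.97 for Qprt and 5.88 for Aadat. The highest Control values of these genes were 3.89, 3.05, 3.29, 3.65, 4.74, 3.92, 4.84 and 3.50. The quartiles of all clusters on that array were 5.49 and 6.65, against 3.99 to 4.17 and 7.33 to 7.54 on the other 35.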

How the results depend on the processing

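No member was called (adjusted p under 0.05, limma) under any of the alternatives run (all arrays, intensity minimum, median centring, quantile normalization, replicate or array letter as a block, no intensity trend, array weights, only the groups compared, mean of a gene's clusters, leaving out each array), and every recomputed count of called members or genes was 0, as reported. The smallest adjusted p of a member was 0.337 over these alternatives, 0.513 with the replicate block and 0.53 with the methods' intensity minimum, which left 3 members. Many of the 522 member differences under settings other than leaving out 1 array could not turn sign. The intensity minimum and the fit without an intensity trend leave a member's difference unchanged. The mean of a gene's clusters also does, as each member had 1 cluster, and so does a fit of 1 treated group with Control. Of the 522, 18 turned sign, and the cause was not tested. With all 36 arrays, the TNF values were 0.39 (Tdo2), 0.28 (Kmo), 0.35 (Kynu) and 0.35 (Haao), and the mean of the 5 treated groups was 0.06 (Kynu) and 0.0705 (Haao). With quantile normalization, Kynu was at 0.0047 in IL-6 Low and 0.0017 in the mean, Ido1 at 0.0086 in IL-6 High and Acmsd at 0.0017 in TNF + IL-6 High. With array weights, Ido1 was at 0.0183 in IL-6 High and Haao at 0.0799 in TNF + IL-6 Low, 0.13 in TNF + IL-6 High and 0.0748 in the mean. With median centring, Kynu was at 0.0173 and Haao at 0.0131 in TNF + IL-6 Low, and Haao at 0.0148 and Acmsd at 0.015 in TNF + IL-6 High.

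Leaving out 1 array turned 61 of 892 differences, in 22 member comparisons whose reported differences were at most 0.0632 in size. In TNF the difference ran from -0.14 to 0.0034 for Kynu. In IL-6 Low it ran from -0.094 to 0.0072 for Kynu, from -0.095 to 0.084 for Haao and from -0.043 to 0.056 for Qprt. In IL-6 High it ran from -0.076 to 0.023 for Ido1, from -0.027 to 0.11 for Tdo2, from -0.0088 to 0.12 for Kynu, from -0.092 to 0.086 for Haao and from -0.094 to 0.026 for Aadat. In TNF + IL-6 Low it ran from -0.044 to 0.059 for Ido1, from -0.10 to 0.011 for Kmo, from -0.089 to 0.045 for Kynu and from -0.14 to 0.042 for Haao. In TNF + IL-6 High it ran from -0.097 to 0.045 for Ido1, from -0.12 to 0.050 for Kynu, from -0.12 to 0.075 for Haao, from -0.045 to 0.026 for Acmsd and from -0.040 to 0.087 for Aadat. In the mean of the 5 treated groups it ran from -0.056 to 0.076 for Tdo2, from -0.084 to 0.0061 for Kynu, from -0.13 to 0.049 for Haao and from -0.012 to 0.11 for Aadat.

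With the replicate number as a block the count of members called stayed at 0 in each comparison. No correlation of 2 members passed with median centring or without the 2 farthest arrays. Of 35 arrays, 11 correlated best with an array of their own number, where an even draw would give 5.83, so a variation shared by number was not excluded. Most members were dim, and 6 of 9 did not pass the methods' minimum on the clusters used here. Whether they passed it on the paper's remapped probe sets is not known here.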
